A study of Mus musculus with 2 samples.

Results

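The Hox genes of the 4 mammalian clusters were followed in the non-polyadenylated (NPA) RNA of mouse embryonic stem cells (ESCs) and of neuronal progenitor cells (NPCs) made from them. The genes were taken as all protein_coding genes of the GENCODE M1 annotation (mm9) whose name is Hoxa, Hoxb, Hoxc or Hoxd followed by a number, which gave 39 names in 40 annotation entries, out of 22241 protein_coding genes counted by name. Reads were counted on the strand of each gene over its exons, and on both strands over each whole cluster. NPA RNA is what remains of total RNA after poly(A) RNA is removed, here in 3 rounds, so the values describe the Hox RNA left in that fraction and not the polyadenylated Hox mRNA. The ESC library came from R1, a male mouse ESC line, at passage 18, kept on mouse embryonic fibroblasts (MEFs) treated with Mitomycin C as feeders, with 1000 U/ml of leukemia inhibitory factor (LIF). The NPC library came from R1 cells kept without LIF for 4 days as embryoid bodies, then replated on poly-L-ornithine and fibronectin in DMEM/F12 with ITS, and gathered on day 7. Each cell type had 1 library, with 4271306 placed reads in ESCs and 4399729 in NPCs, so that 1 read was worth 0.234 and 0.227 RPM (reads scaled to a library of 1000000). No test between cell types could be made, and every interval below is a 95% interval that covers counting error only and compares these libraries.

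Hox genes encode transcription factors that bind DNA through a homeodomain and give cells of the embryo their position from head to tail. Within a cluster the genes are numbered by paralogue group, and those with low numbers are switched on earlier and closer to the head than those with high numbers, in the order in which they lie on the chromosome. In ESCs the clusters are known to be held silent by Polycomb proteins, and retinoic acid and posterior signals open them during differentiation.

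The paralogues are alike in the homeobox, the part of the coding sequence that encodes the homeodomain, so the sequences decide whether a short read can be given to 1 gene. The motif TGGTTNNNNAAN, the letters fixed by codons for tryptophan, phenylalanine, any residue and asparagine of the homeodomain, was searched on the strand of the gene within coding exons, with no other motif. It was found in 39 of the 39 Hox genes and in 2037 of 22241 protein_coding genes (9.16%). A window of 48 bases around it, as long as the deposited read sequences, is shown for 4 of the genes that the counts below turn on, with the motif in capitals.
Hoxb9, chr11:96136099-96136146 (mm9, plus strand): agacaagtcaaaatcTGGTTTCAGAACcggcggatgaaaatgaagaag
Hoxb13, chr11:96057460-96057507 (plus strand): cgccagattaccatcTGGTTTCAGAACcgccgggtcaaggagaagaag
Hoxc13, chr15:102757767-102757814 (plus strand): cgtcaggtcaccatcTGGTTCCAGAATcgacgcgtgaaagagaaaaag
Hoxd8, chr2:74544708-74544755 (plus strand): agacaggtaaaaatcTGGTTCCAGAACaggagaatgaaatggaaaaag
These 4 windows differed from each other by 9 to 17 bases over their 6 pairs, and each occurred once in mm9. Few reads lay over them, with 4 in ESCs for Hoxb13 and 1 for Hoxc13, and 0 in NPCs for each of the 4. The windows take in only the bases around the motif and not the rest of the homeobox. Hoxb4, which held 9 NPC reads, was not among them. Over all Hox exons, 99.7% of the 48-base windows occurred once, with 96.3% in the gene with the lowest share. Of the reads on Hox exons, 73 of 73 in ESCs and 70 of 71 in NPCs were of unique sequence in mm9. The exception lay on Hoxb4, where 8 of the 9 NPC reads were of unique sequence. Only exact copies were counted for this, whereas the alignment allowed up to 2 mismatches in the seed. Whether reads fit another paralogue with mismatches was not tested.

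Hox RNA was scarce in both libraries. All 39 genes together held 73 reads in ESCs (57.2 to 91.8, 17.1 RPM) and 71 reads in NPCs (55.5 to 89.6, 16.1 RPM). That is 0.00171% of all placed reads in ESCs, and in NPCs 0.00161%. The summed level in NPCs was 0.944 times that in ESCs (0.671 to 1.33), an interval that includes equal levels. In bulk RNA such as this, fewer cells that carry a transcript and less of it per cell cannot be told apart.

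Most Hox genes had few reads or none. No read fell on 18 of the 39 genes in either library (46.2%, against 27.3% of all protein_coding genes). By library, 26 Hox genes were at 0 in ESCs, where 32.7% of all protein_coding genes were, and 25 were at 0 in NPCs, where 31.9% were. A count of 0 was taken here as up to 3 reads, although its exact 95% interval ends at 3.69 reads. For these genes, 3 reads are 0.103 to 0.681 RPKM (RPM per kilobase of exon) in ESCs, depending on exon length. In NPCs they are 0.0997 to 0.661 RPKM. The median over the Hox genes was 1 read over both libraries, against 26 over all protein_coding genes. Per length, the median pooled level was 0.0330 RPKM for Hox genes and 0.937 RPKM for all genes, and the highest Hox gene reached 1.91 RPKM, the percentile 56.9 of all protein_coding genes. A sum of at least 10 reads over both libraries was reached by 4 Hox genes (10.3%, against 56.9% of all protein_coding genes).

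**Figure D1:**
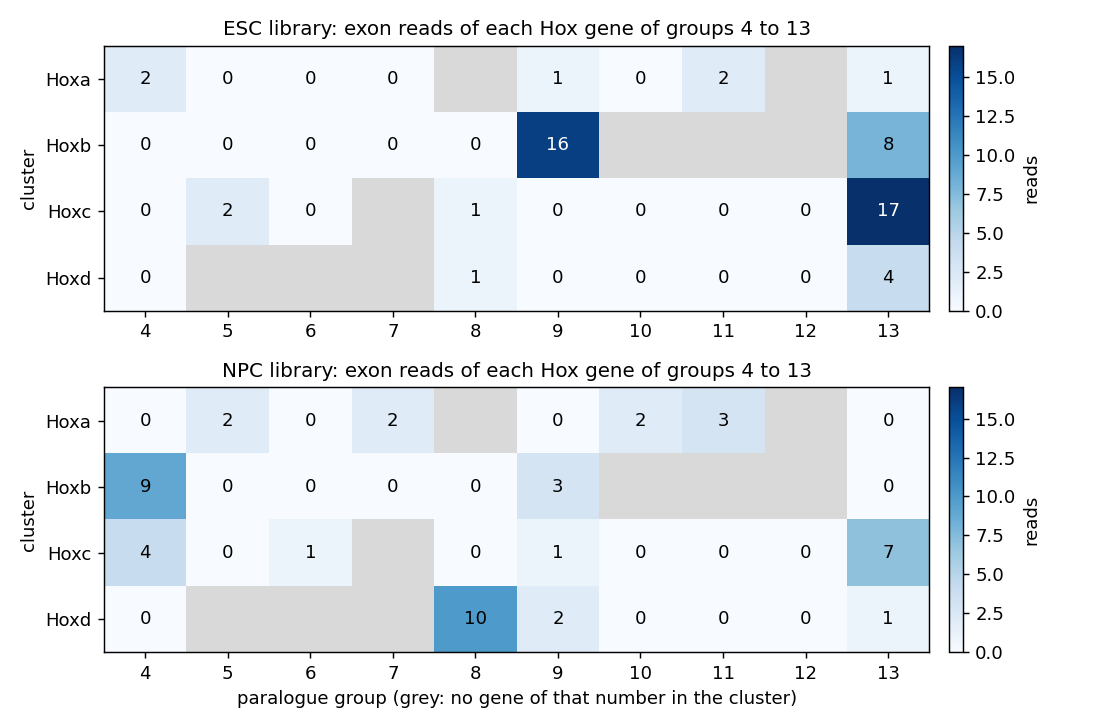
Exon reads of each of the 31 Hox genes of paralogue groups 4 to 13 in the ESC library (upper grid) and the NPC library (lower grid), with clusters in rows, paralogue groups in columns and the read count in each cell. Hoxb9 and Hoxc13 stand out in ESCs with 16 and 17 reads, and Hoxd8 and Hoxb4 in NPCs with 10 and 9.

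The reads were held by a handful of genes, and those with most reads were not all the same in both libraries. The 3 genes with most reads held 68.5% of the Hox reads in ESCs and 60.6% in NPCs. Reads were found in both libraries for 6 genes, in ESCs alone for 7 and in NPCs alone for 8. Of all protein_coding genes, 32.7% had no read in ESCs, 31.9% none in NPCs and 27.3% none in either library. Most of the Hox genes with reads had few, so this split is no measure of a difference between the libraries. The grid of reads by cluster and paralogue group shows that the ESC reads of groups 4 to 13 lay mainly at the high numbers, at Hoxb9 and the members of group 13.

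Hoxc13, the gene at the high-numbered end of its cluster and known for its role in hair and nails, was among the genes with the most ESC reads. It lies at chr15:102751534-102759245 on the plus strand, with 2 exons. It held 17 exon reads in ESCs (9.90 to 27.2, 1.62 RPKM) and 7 in NPCs (2.81 to 14.4, 0.646 RPKM). The ESC level was 2.50 times the NPC level, but the interval of 0.986 to 7.14 still includes 1. The intron of 5251 bp showed the opposite order, with 2 reads in ESCs and 10 in NPCs. The library with more exon reads was therefore the one with fewer intron reads, and over the whole gene on its strand the log2 ratio of NPC to ESC shrank to -0.19 from -1.21 over exons (1 read added).

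Hoxb9, a gene of the thoracic region, was higher in ESCs. It lies at chr11:96132771-96137909 on the plus strand, with 2 exons. It held 16 reads in ESCs (9.15 to 25.98, 1.46 RPKM), from 13 start positions, and 3 in NPCs (0.619 to 8.77, 0.265 RPKM). The ESC level was 5.49 times the NPC level (1.57 to 29.4). Of these reads, 4 in ESCs and 0 in NPCs lay over coding bases.

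Hoxd8 went the other way. It lies at chr2:74542672-74545990 on the plus strand, with 3 exons, and held 1 read in ESCs (0.0253 to 5.57) and 10 in NPCs (4.80 to 18.4, 0.828 RPKM). The NPC level was 9.71 times the ESC level, with a wide interval of 1.38 to 421 because the ESC value is a single read. The 10 NPC reads came from 8 start positions. 

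Among the genes with reads in only 1 library, Hoxb13 and Hoxb4 had the most. Hoxb13, known from the tail end of the body and from prostate, lies at chr11:96055630-96058761 on the plus strand, and held 8 reads in ESCs (3.45 to 15.8), from 5 start positions, and 0 in NPCs. The ESC level was at least 1.76-fold higher, by the lower 95% limit of the ratio, and 2.75-fold higher with the 0 taken as 3 reads. Hoxb4, a gene of the neck region also known from blood stem cells, lies at chr11:96177998-96182952 on the plus strand. It held 0 reads in ESCs and 9 in NPCs (4.12 to 17.1), from 5 start positions. The NPC level of Hoxb4 was at least 1.92-fold higher by the same limit and 2.91-fold with the 0 taken as 3 reads. For both genes the limit takes each read as separate, also where reads share a start position. Both genes showed reads in 1 library and none in the other, at counts below the 10 reads needed for a log2 ratio here. The next gene of this kind was Hoxc4, at 0 in ESCs and 4 in NPCs (1.09 to 10.2), and its 4 reads shared 1 start position.

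Reads that share a position count as separate reads but may be copies made by PCR, and at these counts a single position can carry a gene. The positions with 4 reads in 1 library are shown for Hoxb4 in NPCs and Hoxc13 in ESCs. Capitals mark the 39 bases covered by each of the 8 NPC reads over the Hoxb4 window, and the 47 coding bases of the Hoxc13 window, whose first base is the last of the intron.
Hoxb4, chr11:96181414-96181461 (mm9, plus strand): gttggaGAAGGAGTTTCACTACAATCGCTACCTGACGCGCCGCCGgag
Hoxc13, chr15:102757599-102757646 (plus strand): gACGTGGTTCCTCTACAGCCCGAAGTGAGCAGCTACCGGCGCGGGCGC
The Hoxb4 window thus held 8 of the 9 NPC reads of the gene and 0 of its ESC reads, and each window occurred once in mm9. The Hoxc13 window held 4 ESC reads and 1 NPC read. With each start position counted once, the Hox exons held 57 positions in ESCs and 54 in NPCs.

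The remaining genes with reads gave single-digit counts that order nothing. In ESCs alone, Hoxa4 and Hoxc5 had 2 reads each, and Hoxa3, Hoxa9, Hoxa13 and Hoxc8 had 1. In NPCs alone, Hoxa5, Hoxa7, Hoxa10 and Hoxd9 had 2 reads each, and Hoxc6 and Hoxc9 had 1. Hoxa11 had 2 ESC reads and 3 NPC reads, and Hoxd13, a gene of the digits and the tail end, had 4 and 1. The genes with no read in either library were Hoxa2, Hoxa6, Hoxb1, Hoxb2, Hoxb3, Hoxb5, Hoxb6, Hoxb7, Hoxb8, Hoxc10, Hoxc11, Hoxc12, Hoxd1, Hoxd3, Hoxd4, Hoxd10, Hoxd11 and Hoxd12.

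Calls were made on the log2 scale with 1 read added. Of the 4 Hox genes with at least 10 reads, 1 was more than 2-fold higher in NPCs (Hoxd8) and 2 were more than 2-fold lower (Hoxb9 and Hoxc13). Each of these called genes reached 10 reads only through the library where it was high, so the calls are no measure of the Hox genes as a whole. With each start position counted once, only the call of Hoxb9 was left, since Hoxd8, at a log2 ratio of 1.90, had fewer than 10 positions and Hoxc13 was at -0.97. Among all 12656 protein_coding genes with at least 10 reads, 26.2% were more than 2-fold higher in NPCs and 11.6% more than 2-fold lower. Log2 ratios of NPC to ESC had a median of -0.39 over these 4 genes and of 0.40 over all 12656. The scale by library total thus sets most genes somewhat higher in NPCs, and the NPC/ESC median of ratios over protein_coding genes was 1.33. On so few genes the counts and the median describe only those 4.

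Within groups 4 to 13, the Hox reads sat at different places in the 2 libraries. The 15 genes of groups 4 to 8, of the neck and upper trunk, held 6 reads in ESCs (2.20 to 13.1) and 28 in NPCs (18.6 to 40.5), 4.53 times higher in NPCs (1.84 to 13.4). The 16 genes of groups 9 to 13, of the lower trunk and tail, held 49 reads in ESCs (36.3 to 64.8) and 19 in NPCs (11.4 to 29.7), which was 0.376 times the ESC level (0.209 to 0.651). Both differences kept their direction under each scaling. With each start position counted once, groups 4 to 8 held 5 positions in ESCs and 18 in NPCs, and their log2 ratio of 2.18 became 1.58 (0.09 to 3.36), with a lower limit close to no change, whereas that of groups 9 to 13 was -1.39 (-2.31 to -0.53). As shares of all Hox reads, groups 9 to 13 held 67.1% in ESCs and 26.8% in NPCs, and groups 4 to 8 held 8.22% and 39.4%. The difference in the middle groups rested on Hoxb4 and Hoxd8, with 19 of the 28 NPC reads, and that in the last groups on Hoxb9, Hoxb13 and Hoxc13, with 41 of the 49 ESC reads. These groupings describe the same few genes again.

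**Figure D2:**
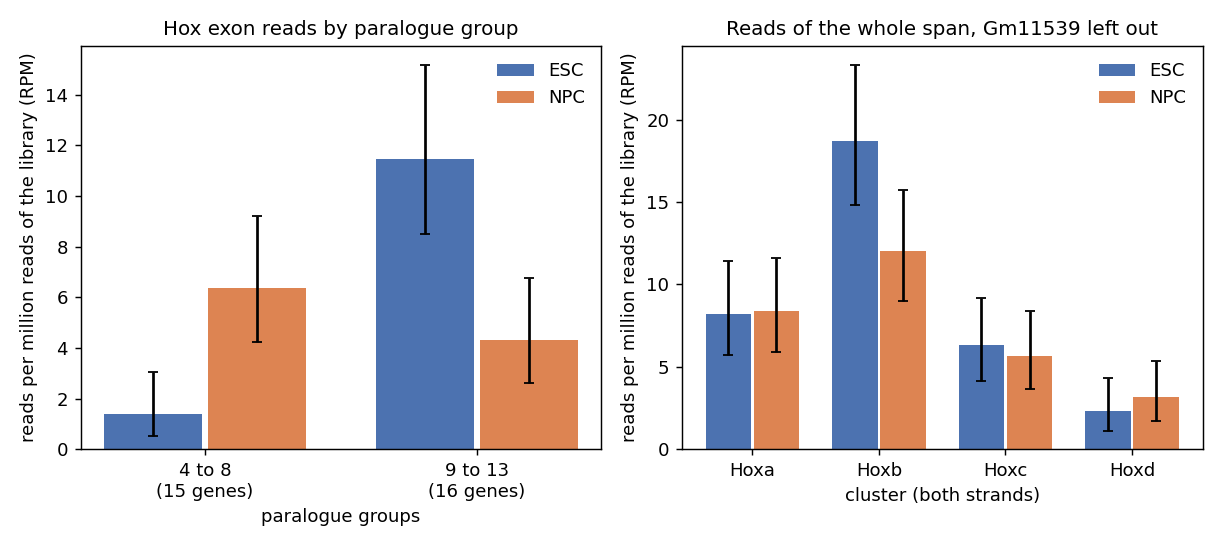
Left, RPM of Hox exon reads in 2 ranges of paralogue groups, and right, RPM of reads on both strands of each cluster span without the pseudogene Gm11539, for ESCs and NPCs (1 library each). Bars are the values, error bars are exact Poisson 95% intervals, and the intervals of the libraries are apart for both ranges of groups but overlap for each cluster.

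The reads on Hox genes had the strand of the genes. Over Hox exons, the opposite strand held 1 read in ESCs and 1 in NPCs, the latter over Hoxb3. Coding bases held 45.2% of the Hox exon reads in ESCs and 39.4% in NPCs, and make up 33.1% of the Hox exon bases. Introns of Hox genes on the gene strand held 13 reads in ESCs and 10 in NPCs, and all 10 of the latter were in the Hoxc13 intron.

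Whole clusters were then counted on both strands, from the outer end of the first Hox gene to that of the last. The Hoxa cluster (chr6:52105366-52210874, 105509 bp, genes on the minus strand) held 35 reads in ESCs and 37 in NPCs. The Hoxc cluster (chr15:102751534-102867274, 115741 bp, plus strand) held 27 and 25 reads, and the Hoxd cluster (chr2:74506367-74603200, 96834 bp, plus strand) held 10 and 14. NPC over ESC ratios were 1.03 for Hoxa (0.629 to 1.68), 0.899 for Hoxc (0.5004 to 1.61) and 1.36 for Hoxd (0.561 to 3.42), so none of the 3 differed beyond counting error. The Hoxb cluster (chr11:96055630-96229570, 173941 bp, plus strand) held far more, with 2819 reads in ESCs (2716 to 2925) and 1300 in NPCs (1230 to 1373), a ratio of 0.448 (0.419 to 0.478).

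Nearly all reads of the Hoxb span lay outside the Hox genes. The pseudogene Gm11539 (chr11:96109947-96110503, plus strand, between Hoxb13 and Hoxb9) took up 2739 reads in ESCs (97.2% of the span) and 1247 in NPCs (95.9%). Of these, 99.0% in ESCs and 99.4% in NPCs also occur letter for letter in transcripts of Rpl18, a ribosomal protein gene at chr7:52970827-52976205, and 91.1% and 85.8% lie across a border between Rpl18 exons. The start position with most reads, which alone held 2290 reads in ESCs and 975 in NPCs, shows this pattern, with lower case for the bases of 1 Rpl18 exon and a capital for the base of the next exon.
Gm11539, chr11:96109990-96110037 (mm9, plus strand): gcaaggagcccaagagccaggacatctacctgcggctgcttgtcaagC
These 48 bases occur once in mm9, in Gm11539, whereas the Rpl18 gene with its introns differs from them at 1 base. Exons of Rpl18 itself held 401 reads in ESCs and 288 in NPCs. Without the reads on Gm11539, the Hoxb span held 80 reads in ESCs (63.4 to 99.6) and 53 in NPCs (39.7 to 69.3), and the ratio was 0.643 (0.446 to 0.921).

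Without Gm11539, all 4 spans, 492025 bases in total, held 152 reads in ESCs and 129 in NPCs. The densities ran from 0.103 reads per kb in Hoxd to 0.460 in Hoxb in ESCs and from 0.145 in Hoxd to 0.351 in Hoxa in NPCs. The mean over the genome was 1.61 reads per kb in ESCs and 1.66 in NPCs. Each cluster was thus sparser than the genome mean in each library. The strand of the Hox genes held 82.9% of the ESC reads and 89.2% of those in NPCs for Hoxa, 92.6% and 96.0% for Hoxc, and 100% and 92.9% for Hoxd. For Hoxb without Gm11539 the shares were 95% and 96.2%.

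**Figure D3:**
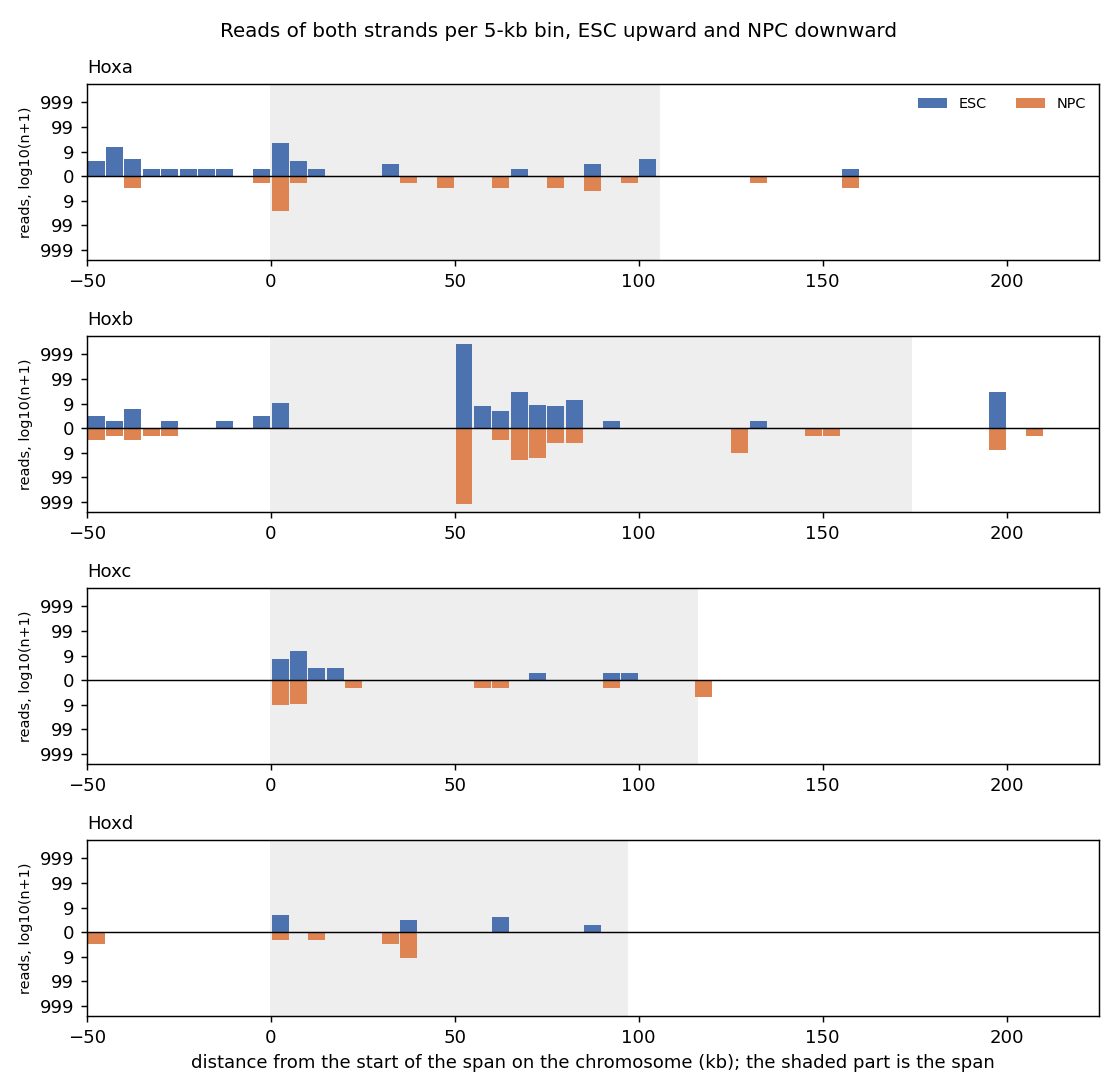
Reads of both strands in 5-kb bins from 50 kb before to 50 kb after each cluster span, by distance from the span start in kb, with ESC bars upward and NPC bars downward on a log10(n + 1) axis. The bin with Gm11539 in Hoxb is the tallest in both libraries, and most bins inside the spans hold few reads or none.

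The other genes in and beside the spans showed where the rest of the reads lay. Gm53, a protein_coding gene between Gm11539 and Hoxb9, held 29 exon reads in ESCs and 25 in NPCs, more than any Hox gene. The 6588 bp between Gm53 and Hoxb9 (chr11:96126183-96132770) held 11 reads in ESCs and 10 in NPCs on the plus strand, from 9 start positions each, and 0 on the minus strand. Gm15051 in the Hoxa span, which RefSeq names Hotairm1, is a noncoding RNA known from blood cell development. Its exons held 1 read in each library and its whole body 6 in ESCs and 2 in NPCs. Gm16258, which RefSeq names Hotair, and Gm15053, which it names Hottip, both known as noncoding RNAs that act on Hox genes, had 0 reads in either library.

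Genes further out, other than Evx1 and Evx2, held more reads than the median protein_coding gene, with 26 over both libraries. On the side of Hoxa, exon reads were 144 in ESCs and 213 in NPCs for Snx10 (565 kb away). Skap2 (143 kb) had 90 and 48, and Hnrnpa2b1 (685 kb) had 530 and 1005. Mtx2, 60.7 kb from Hoxd, had 67 and 82, and Calcoco1, 199 kb from Hoxc, had 98 and 110. The homeobox genes directly beyond the high-numbered ends, Evx1 and Evx2, had 0 reads in ESCs and 3 and 0 in NPCs. The stretches of 100 kb on either side of the spans were sparse as well, with 0.03 to 1.07 reads per kb in ESCs and 0 to 0.94 in NPCs, each below the genome mean. Those beside Hoxc, with 0.03 and 0.05 reads per kb in ESCs and 0 and 0.01 in NPCs, were sparser than the Hoxc span itself, at 0.233 and 0.216. Those beside Hoxd, with 0.43 and 0.5 in ESCs and 0.4 and 0.49 in NPCs, were denser than the Hoxd span, at 0.103 and 0.145. Beside Hoxa and Hoxb, 1 stretch was denser and 1 sparser than the span in each library, with Gm11539 left out.

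The clusters also carry 6 miRNA genes, Mir10a, Mir10b, Mir196a-1, Mir196a-2, Mir196b and Mir615, whose products include known repressors of Hox mRNAs. None of their hairpins held a read in either library. The deposited reads are 48 bases long and came from fragments of 150 to 250 bp, longer than a mature miRNA, so mature miRNAs were not measured. Mature sequences of the mir-10 and mir-196 families, from RefSeq (GRCm38.p6), are shown with the seed, bases 2 to 8, in capitals, because the members of each family share it.
mmu-miR-10a-5p: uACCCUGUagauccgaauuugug
mmu-miR-10b-5p: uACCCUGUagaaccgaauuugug
mmu-miR-196a-5p: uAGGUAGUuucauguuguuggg
mmu-miR-196b-5p: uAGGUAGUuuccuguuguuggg

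Genes for proteins that bind DNA together with Hox proteins had many more reads than the Hox genes, in counts that are not set per length. The 13 listed cofactors, the PBC and MEIS class homeodomain proteins and their partners, held 1278 reads in ESCs and 1510 in NPCs, and 12 of them had at least 10 reads. Of these 12, 5 were more than 2-fold higher in NPCs (41.7%, beside 26.2% of all genes) and 0 lower (beside 11.6%), and the median log2 ratio was 0.47, beside 0.40 over all genes. Here and in the lists that follow, a gene with few reads in 1 library passed the filter through the library where it was high, so counts and medians describe the genes that passed. Meis1 had 4 reads in ESCs and 65 in NPCs, a ratio of 15.8 (5.87 to 59.6). Meis2 had 2 and 46 (ratio 22.3, 5.84 to 190), and Pknox2 had 6 and 59 (9.55, 4.13 to 27.1). The members with most reads, Pbx2 with 396 in ESCs and 257 in NPCs, Tgif2 with 229 and 250, Tgif1 with 227 and 242 and Pknox1 with 164 and 138, stayed within 2-fold. Of the MEIS class genes named here, Meis1, Meis2 and Pknox2 were thus higher in NPCs, whereas Pknox1 had a ratio of 0.817 (0.647 to 1.03).

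Of 18 listed regulators upstream of Hox genes, 7 had at least 10 reads. Of these, 4 were more than 2-fold higher in NPCs (57.1%, beside 26.2% of all genes) and 3 lower (42.9%, beside 11.6%). The median log2 ratio was 1.86, with a wide interval of -2.36 to 5.98. The whole list summed to 357 reads in ESCs and 374 in NPCs, a ratio of 1.02 (0.877 to 1.18). Rarg held most of these ESC reads, and without it the sums were 83 and 274. Cyp26a1, which breaks down retinoic acid and is itself switched on by it, had 3 reads in ESCs and 135 in NPCs (ratio 43.7, 14.6 to 214). The retinoic acid receptor gene Rarb had 2 and 13 (ratio 6.31, 1.43 to 57.6), and Gdf11, a signal for posterior Hox genes, had 7 and 29 (4.02, 1.72 to 10.9). Lower in NPCs were Rarg with 274 and 100, Wnt3 with 24 and 4, and Gbx2 with 23 and 10. The retinoic acid genes of the list thus went in both directions. The Cdx genes, direct activators of trunk Hox genes and named here after their values were seen, had 8, 0 and 1 reads in ESCs and 0, 2 and 0 in NPCs for Cdx1, Cdx2 and Cdx4.

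Other homeobox genes related to Hox genes had few reads as well. The 18 listed held 55 reads in ESCs and 31 in NPCs, and 2 had at least 10, Gbx2 and the midbrain gene En2 (8 and 2), both more than 2-fold lower in NPCs (as were 11.6% of all genes). Of 13 listed anterior neural genes, most of them active in forebrain and midbrain, ahead of the Hox domain in the embryo, 7 had at least 10 reads, with 6 more than 2-fold higher in NPCs (85.7%, beside 26.2% of all genes), 0 lower (beside 11.6%) and a median log2 ratio of 2.96. These values are no measure of the list as a whole, because Otx1, Emx2, Six3, Lhx2 and Zic1, with 0 or 1 read in ESCs and 10 to 22 in NPCs, reached 10 reads only through the library where they were high. Otx1 and Emx2 each had 0 reads in ESCs and 18 in NPCs, at least 4.27-fold higher by the lower 95% limit of the ratio and 5.82-fold with the 0 taken as 3 reads. Zic1 had 1 and 22 (ratio 21.4, 3.45 to 881), Zic2 14 and 34 (2.36, 1.23 to 4.76) and Otx2, also a gene of ESCs leaving pluripotency, 109 and 161 (1.43, 1.12 to 1.85). The anterior genes summed to 132 reads in ESCs and 293 in NPCs, a ratio of 2.15 (1.75 to 2.67), beside 0.944 (0.671 to 1.33) for Hox genes. Otx2 held most of these ESC reads, and without it the sums were 23 and 132.

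Chromatin regulators of the clusters were read in both libraries. Of 18 genes of the Trithorax group, which keeps Hox genes active, and of Polycomb repressive complex 1, 17 had at least 10 reads, with 6 more than 2-fold higher in NPCs (35.3%, beside 26.2% of all genes), 1 lower (5.88%, beside 11.6%) and a median log2 ratio of 0.43. These shares and the median lay near those of all genes. The Polycomb gene Phc1 was the 1 lower, with 971 reads in ESCs and 370 in NPCs. Bmi1 had 30 and 144 (ratio 4.66, 3.13 to 7.16), and Ring1 16 and 52 (3.16, 1.77 to 5.92). Rnf2, the main ubiquitin ligase of the complex, had 639 and 889. All 10 genes for CTCF and cohesin, which fold the clusters into loops, had at least 10 reads, with 1 more than 2-fold higher (Stag2, 331 and 702), 0 lower (beside 26.2% and 11.6% of all genes) and a median log2 ratio of 0.67. Ctcf itself had 215 and 433 reads.

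**Figure D4:**
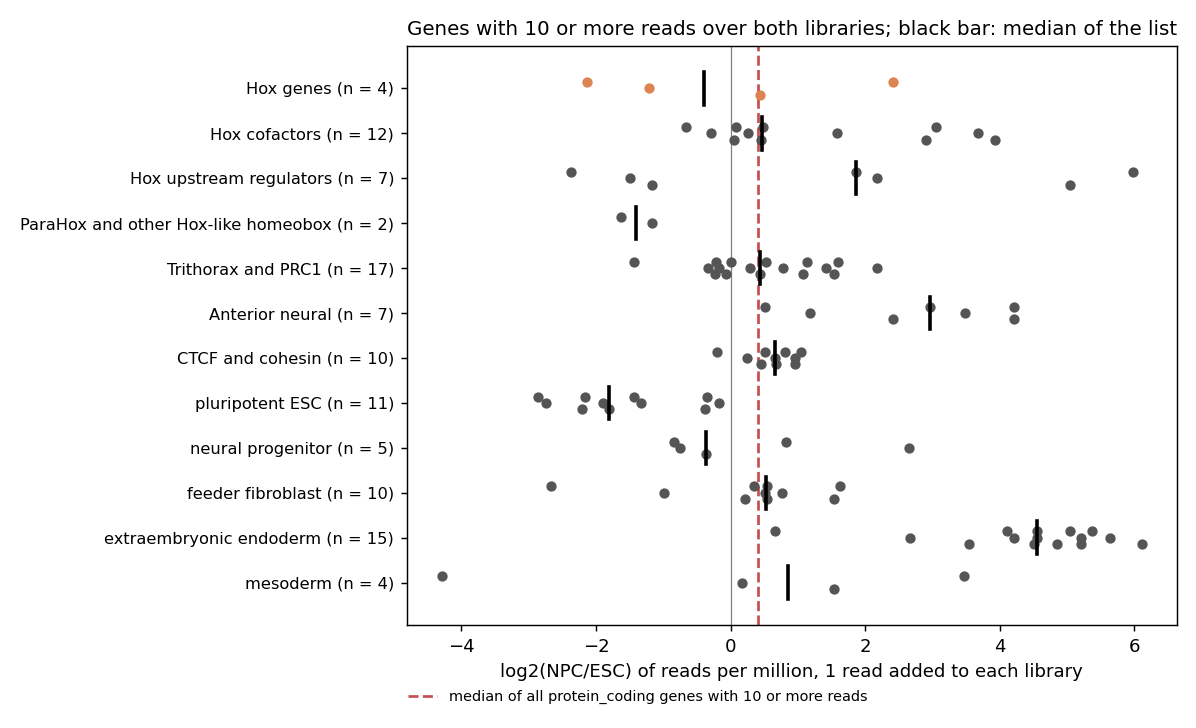
Log2 ratio of NPC to ESC in RPM, with 1 read added, for each gene with at least 10 reads in the Hox genes (orange), the 6 lists of Hox partners and regulators, and the 5 lists of cell type markers. Black bars are list medians and the dashed line is the median of all protein_coding genes, 0.40. The 4 Hox genes spread from -2.13 to 2.42, and the extraembryonic endoderm markers lie furthest to the right with a median of 4.56.

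The labels of the libraries were set beside marker genes of the cell types that could be present. All 11 matched pluripotency markers had at least 10 reads, 8 were more than 2-fold lower in NPCs (72.7%, beside 11.6% of all genes) and 0 higher (beside 26.2%), and their sum was 10480 reads in ESCs and 3127 in NPCs, with the most reads on Pou5f1 (2623 and 724). Of 13 matched neural progenitor markers, 5 had at least 10 reads. Of these 5, 1 was more than 2-fold higher in NPCs (20%, beside 26.2% of all genes) and 0 lower (beside 11.6%). The sums over the list were 346 reads in ESCs and 339 in NPCs. Tubb3 had 109 and 87 reads, Nes 66 and 121, and Pax6 1 and 12. Sox3 and Pou3f2 each had 0 and 5, whereas Dll1 had 70 and 40 and Msi1 99 and 60. Olig2 and Neurog1 were at 0 in both libraries. The neural markers thus went in both directions. Markers of extraembryonic endoderm were the ones that set the NPC library apart. All 15 had at least 10 reads, 14 were more than 2-fold higher in NPCs (93.3%, beside 26.2% of all genes), and their sum was 3540 reads in ESCs and 68617 in NPCs, with Col4a1 at 856 and 20753 and Gata6 at 8 and 459. The part of these cells in the Hox values was not tested.

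Feeder fibroblasts can carry Hox RNA of their own, and ESCs were grown on them. Of 12 listed fibroblast markers 10 had at least 10 reads, 2 more than 2-fold higher in NPCs (20%) and 1 lower (10%), near the 26.2% and 11.6% of all genes, with sums of 2494 reads in ESCs and 1939 in NPCs. Fn1 had the most reads (1815 and 938), and without it the sums were 679 and 1001, in the other order. Vim had 469 and 706, Col1a2 51 and 165, Postn 19 and 34, Twist1 2 and 8, Col1a1 20 and 24, Thy1 79 and 12, and Lum was at 0 in both libraries. The mesoderm markers, 14 genes, held 54 and 104 reads, or 50 and 48 without Hand1, which had 4 and 56. Mesp2 had 18 and 0, and T had 5 and 0. The part of fibroblasts and mesoderm in the Hox values was not tested.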

How the data were processed

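Bowtie and mm9 are named in the submitters' processing notes. The authors depleted the RNA of poly(A) transcripts (3 rounds) and ribosomal RNA (1 round), sequenced reads of 50 nt, aligned them with a seed of 45 nt, at most 2 mismatches in it and uniqueness not enforced, and removed mitochondrial, ribosomal and repeat reads. The deposited values are placements of reads, 1 line per read with 48 bases of sequence. Here, reads overlapping exons by at least 1 base on the gene strand were counted as raw reads. RPM divides by all placed reads of the library. Log2 ratios add 1 read and need at least 10 reads over both libraries. Intervals are exact Poisson for counts and conditional binomial for ratios, at 95%, from SciPy 1.17.1. The counting was tested on simulated data. Genes named from the lists are mostly those with the most reads or the most extreme ratios. Some genes with 0 reads in 1 or both libraries are named as well, among them Sox3, Pou3f2, Olig2, Neurog1, Lum and T. In the marker lists 2 genes, Sox1 and Tfcp2l1, did not match the annotation. The Hox genes, the lists and the tests were chosen with earlier results of these data known. Some genes and sequences that this rule takes in are not reported here. How many cultures gave the RNA of each sequencing library is not given in the sources used here.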

Additional observations from a re-analysis of the deposited data

Results flagged for a closer look

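Reads were also found in the spans outside Hox exons and outside other annotated genes, above the 3 reads taken here for a count of 0. In ESCs these were 5 reads in Hoxa, 18 in Hoxb, 7 in Hoxc and 5 in Hoxd. In NPCs they were 10 reads in Hoxb and 12 in Hoxc, of which 10 lay in the Hoxc13 intron. The 11 ESC and 10 NPC reads between Gm53 and Hoxb9 are part of the Hoxb values.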

How the results depend on the processing

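Of 116 repeats of the main results under another setting, 97 stayed within their interval (counts of genes, within 1.5 times) and 19 moved. No log2 ratio or median whose main interval left out 0 changed sign. Some of those whose interval held 0 did change sign, and the ones among the results reported here are given next. The Hox median went from -0.39 to 0.04 with whole genes. The Hoxa span went from 0.04 to between -0.37 and -0.05 under 4 settings. With each start position counted once, the Hoxd span went from 0.44 to -0.01 and the Trithorax and PRC1 median from 0.43 to -0.01. With no filter on reads, 7 Hox genes were more than 2-fold higher and 10 lower in NPCs. With at least 20 reads, these were 0 and 1. Shares of all protein_coding genes are given here only for the filter of 10 reads, so these counts have none beside them. Without a filter, 1 ESC read against 0 was called lower, at a log2 ratio of -1.04 (such as Hoxa3). By contrast, 1 NPC read against 0 was not called, at 0.957 (such as Hoxc6). Counting each start position once gave 0 higher and 1 lower, where Hoxd8, at a log2 ratio of 1.90 in place of 2.42, had fewer than 10 positions, and counting whole genes gave 1 lower. The Hoxb span had a log2 ratio of -1.16, which became -0.78 with each start position counted once, -1.57 when scaled by the median of ratios, -1.48 when scaled by reads on coding exons other than histones, -1.34 with reads of unique sequence and -0.64 without Gm11539, a setting added after the data were seen. The share of span reads on the Hox strand over the 4 clusters, 99.6% in ESCs and 99.4% in NPCs, was 93.2% and 94.4% with each start position counted once and 92.1% and 93.8% without Gm11539. The median of the homeobox genes related to Hox genes, -1.40, was -1.81 when scaled by the median of ratios and -1.72 when scaled by coding exons, and that of CTCF and cohesin, 0.67, was 0.16 with each start position counted once. The median of the extraembryonic endoderm markers, 4.56, was 2.82 with each start position counted once. The causes were not tested, apart from Gm11539. No paired analysis was possible because each cell type had 1 library, and no replicate could be left out. Depth limits what can be seen: the 3 reads taken for a count of 0 are worth 0.702 RPM in ESCs and 0.682 RPM in NPCs. The exact 95% interval of a count of 0 ends somewhat higher, at 3.69 reads.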
